A study of Mus musculus with 9 samples.

Results

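Tight junction transcripts were examined in mouse whole kidney: every claudin and zonula occludens gene (symbols Cldn or Tjp with a number) together with Ocln, Marveld2, Marveld3, Cgn, Cgnl1, F11r, Jam2 and Jam3. The rule found 37 genes, 26 claudins and 11 others, among the 52160 gene symbols counted. Of these, 28 had enough counts to be tested (17 claudins and all 11 others) among 18067 tested genes, and no member passed the test in any comparison of genotypes. Polyadenylated RNA had been sequenced from 9 kidney libraries in 3 groups of 3, all on the C57Bl/6N background and at 16 weeks of age. The groups were wild type (WT), mice with Ybx1 deleted from podocytes (ΔPod), and mice whose podocytes carry a Ybx1 that cannot be secreted because a pair of lysines is replaced in exon 7 (K2A, changes K299A and K302A). A supplier is labelled for the wild-type animals alone, and the promoter or Cre line that targets podocytes is not given in the sources used here. Whether the 3 libraries of a group stem from separate animals is not labelled, and p-values therefore measure only the spread between these libraries. Ybx1 encodes Y-box binding protein 1, a cold shock protein that binds RNA and DNA.

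Claudins are proteins that cross the membrane 4 times and meet their partners on the neighbouring cell, where they set which ions pass between epithelial cells. Each nephron segment has its own set: claudin-2 makes the cation and water pore of the leaky proximal tubule, claudins 10, 16 and 19 govern sodium, calcium and magnesium in the thick ascending limb, and claudins 3, 4, 7 and 8 seal the collecting duct. Occludin, tricellulin and MARVEL domain containing 3 form another membrane family, junctional adhesion molecules (JAMs) are immunoglobulin-like receptors, and the zonula occludens proteins (such as ZO-1), cingulin and paracingulin tie them to actin. Another Y-box protein, Ybx3 (ZONAB), is known to bind ZO-1 at the junction.

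The libraries held 30776806 to 46852490 counts, and values are given as CPM (reads counted for a gene, rescaled so that TMM-corrected library sizes match) or, between genes, as CPM per kb of the longest annotated transcript. Ybx1 itself was measured at 1190, 1585 and 1185 CPM in WT, 1167, 881 and 605 CPM in ΔPod, and 1078, 1152 and 554 CPM in K2A, so all 6 mutant libraries lay below the WT libraries. Its fold change did not pass the edgeR test, and most kidney cells express it, so whole-kidney counts check a podocyte genotype only weakly. In 4 libraries (WT 1, WT 3, ΔPod 3 and K2A 3) long transcripts had relatively higher counts and in the other 5 short ones did; the first are called positive-slope and the others negative-slope libraries, after the sign of the slope of log2 CPM on log2 length. Ribosomal protein genes took 0.999 to 1.17% of counts in the positive-slope libraries and 2.44 to 7.86% in the others. Slopes also differed within the negative-slope class: -0.08 in WT 2, -0.47 and -0.17 in ΔPod 1 and 2, and -0.25 and -0.27 in K2A 1 and 2. Ratios to WT within that class therefore compare libraries of unlike slope, with WT 2 as the only WT library. The WT and mutant groups also differed in genes that mark sex: of 11 male-biased kidney genes, 11 were called lower in ΔPod and 10 in K2A, and of 5 female-biased genes 3 were called higher in each. Genotype and sex therefore cannot be told apart in any comparison with WT. The mutants also differed in these genes, with none called: all 11 male-biased genes were higher in K2A than in ΔPod (median log2 fold change 1.94). The summed female-biased genes reached 5401 CPM in K2A 3, beside 467 to 938 CPM in the other mutant libraries. In whole kidney, fewer cells of a type and less RNA per cell cannot be told apart either.

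Across the 9 libraries the tight junction transcripts spanned more than 3 orders of magnitude. Cldn10 had the highest mean, 231 CPM per kb, followed by Cldn2 at 148, Cldn8 at 48.7, F11r at 42.2, Cgnl1 at 40.3, Cldn12 at 33.0 and Cldn7 at 25.0 CPM per kb. At the other end stood Cldn6 (0.499), Cldn14 (0.321), Cldn23 (0.244), Cldn9 (0.226) and Cldn18 (0.144 CPM per kb). In WT alone the leading order was Cldn2 (199 ± 27.1 CPM per kb, SD, n = 3), Cldn10 (173 ± 68.8), Cgnl1 (55.6 ± 30.9), Cldn8 (43.1 ± 2.44) and F11r (41.3 ± 1.78). Cldn2 and Cldn10 overlapped there, as did Cgnl1, Cldn8 and F11r, whereas every Cldn10 value lay above every Cgnl1 value and every F11r value above every Cldn12 value. Of the untested claudins, Cldn13, Cldn24, Cldn25, Cldn34a and Cldn34d had no count in any library, Cldn17, Cldn20 and Cldn22 had at most 6 counts in a library, and Cldn11 is described with the JAMs. A share of 0 counts limits the level to less than 0.0280 CPM for K2A, 0.0269 CPM for WT and 0.0250 CPM for ΔPod (3 counts over the group, counting error only).

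**Figure D1:**
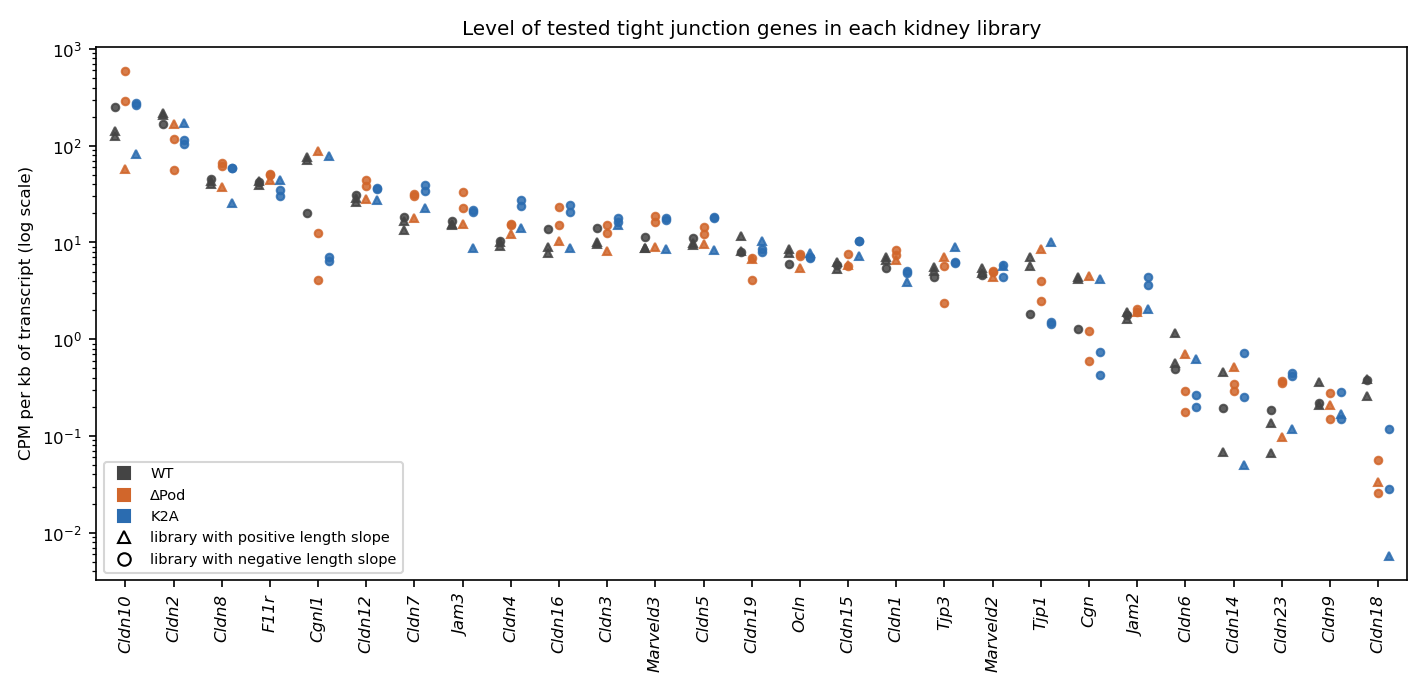
Level of 27 tested genes in each library, in CPM per kb on a log axis, ordered by the mean over 9 libraries; colour gives the group and the symbol shape the sign of the library's length slope. Cldn10 and Cldn2 lead at 231 and 148 CPM per kb, and Cgnl1, Tjp1 and Cgn split by symbol shape.

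Cldn10 and Cldn2 together made up most of the claudin signal. Cldn10, which forms a cation pore or an anion pore depending on which first exon is used, was measured at 300.4, 535 and 266 CPM in WT, 1255, 622 and 123 CPM in ΔPod, and 586, 559.8 and 175 CPM in K2A. Every negative-slope library (535 to 1255 CPM) lay above every positive-slope library (123 to 300.4 CPM), and the genotypes overlapped. In edgeR the log2 fold change of Cldn10 in ΔPod was 0.86 (SE 0.77, adjusted p = 0.575), and -0.48 with the length slope as a covariate. Cldn2, the proximal tubule pore, was measured at 671, 514 and 637 CPM in WT, 171, 358 and 509 CPM in ΔPod, and 321, 347 and 522 CPM in K2A. The ΔPod libraries all lay below WT, ΔPod 3 and WT 2 being nearest, whereas K2A 3 lay within the WT range. The edgeR log2 fold change of Cldn2 against WT was -0.81 for ΔPod (SE 0.41, adjusted p = 0.395) and -0.61 for K2A (SE 0.41, adjusted p = 0.695). The 10 proximal tubule markers were all tested and none was called. They summed to 8817 to 17014 CPM for WT, 2578 to 13195 CPM for ΔPod and 4013 to 9809 CPM for K2A. Their sum followed the library classes, with 9809 to 17014 CPM in the positive-slope libraries and 2578 to 8817 CPM in the others. Singly, Slc34a1, Slc22a6, Slc5a12 and Aqp1 overlapped between the classes. The part of the proximal tubule markers in the Cldn2 values was not tested.

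As a share of all claudin CPM per kb, Cldn10 held 26.3 to 43.0% in WT, 15.7 to 67.5% in ΔPod and 20.6 to 44.5% in K2A, and Cldn2 held 28.8 to 43.9%, 6.41 to 45.2% and 17.0 to 43.1%. The summed claudin level ran from 476 to 585 CPM per kb in WT, 369.9 to 873 in ΔPod and 398 to 626 in K2A. Within the positive-slope libraries the log2 ratio of Cldn10 to WT was -1.20 in ΔPod and -0.70 in K2A, and within the negative-slope libraries it was 0.81 and 0.10 (no test, 1 or 2 libraries a side). The direction of Cldn10 thus differed between the library classes, while Cldn2 was lower than WT in both (-0.36 and -0.96 in ΔPod, -0.32 and -0.62 in K2A). Counts by gene symbol merge the Cldn10 isoforms. RefSeq gives 2 starts for the gene, and the 250 bases before each (GRCm38.p6) are shown because they differ so much in composition, 36.0% G+C at the upstream start and 72.4% at the other; capitals mark a CCAAT box on either strand, the letters after which Y-box proteins are named.

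Cldn10 (chr14:118787621-118787870, plus strand): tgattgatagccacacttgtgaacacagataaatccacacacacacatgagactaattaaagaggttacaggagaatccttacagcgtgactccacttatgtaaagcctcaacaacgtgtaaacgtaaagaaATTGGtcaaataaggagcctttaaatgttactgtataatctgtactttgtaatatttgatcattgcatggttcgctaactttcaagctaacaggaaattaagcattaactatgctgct
Cldn10 (chr14:118854700-118854949, plus strand): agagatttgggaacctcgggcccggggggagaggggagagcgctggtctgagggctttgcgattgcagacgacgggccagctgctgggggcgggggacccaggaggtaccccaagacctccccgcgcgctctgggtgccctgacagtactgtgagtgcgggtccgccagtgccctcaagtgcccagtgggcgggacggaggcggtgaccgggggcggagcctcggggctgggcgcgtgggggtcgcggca

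CCAAT or its reverse ATTGG stood in 33.9% of the 32851 RefSeq promoters searched and in 11 of the 32 promoters that matched 21 members (34.4%). A match describes the letters in this window and no more.

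The claudins of the thick ascending limb showed no shared direction. Cldn16 (paracellin-1, chromosome 16, 26463135 to 26482765), needed for magnesium and calcium reabsorption, was measured at 9.23, 16.2 and 10.6 CPM in WT, 27.5, 17.9 and 12.2 CPM in ΔPod, and 24.5, 28.5 and 10.3 CPM in K2A. Its partner Cldn19 was measured at 48.5, 33.4 and 33.7 CPM in WT, 16.9, 28.8 and 28.3 CPM in ΔPod, and 35.9, 33.4 and 43.5 CPM in K2A. All ΔPod libraries were below all WT and all K2A libraries for Cldn19, and the genotypes overlapped for Cldn16. For Cldn16 every negative-slope library lay above every positive-slope library. The edgeR log2 fold change of Cldn19 in ΔPod was -0.64 against WT (SE 0.31, adjusted p = 0.384), and K2A stood 0.61 above ΔPod (SE 0.31, adjusted p = 1). Within each library class the log2 ratio of Cldn19 in ΔPod to WT was -0.54. The ratio of Cldn16 to Cldn19 counts was a comparison chosen after the values were seen. It was 0.190 to 0.487 in WT, 0.431 to 1.62 in ΔPod and 0.236 to 0.854 in K2A. This ratio followed the library classes, with 0.190 to 0.431 in the positive-slope libraries and 0.487 to 1.62 in the others. Cldn14, which blocks the Cldn16 and Cldn19 channel, was scarce, from 0.0726 to 1.04 CPM over all libraries. None of the 6 thick ascending limb markers was called. Their sum was 4413 to 8286 CPM for WT, 2346 to 6861 CPM for ΔPod and 3737 to 8771 CPM for K2A. It was 6861 to 8771 CPM in the positive-slope libraries and 2346 to 4413 CPM in the others. Umod weighed most in this sum, and Umod, Slc12a1, Egf and Casr were each higher in every positive-slope library. Kcnj1 went the other way, with 248 to 332 CPM in the positive-slope libraries and 346 to 696 CPM in the others, and Ptger3 overlapped. The part of the thick ascending limb markers in the claudin values was not tested.

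Among members with a mean of at least 10 CPM, a pair of collecting duct claudins, Cldn4 and Cldn7, had the largest positive fold changes in K2A. Cldn4, a barrier to cations and partner of claudin-8 in the chloride pathway, was measured at 18.6, 18.6 and 16.6 CPM in WT, 27.2, 28.4 and 22.1 CPM in ΔPod, and 43.7, 50.3 and 25.9 CPM in K2A. The groups did not overlap between WT and either mutant, and K2A 3 lay among the ΔPod libraries. Its edgeR log2 fold change was 1.16 in K2A (SE 0.30, adjusted p = 0.168) and 0.53 in ΔPod (SE 0.30, adjusted p = 0.420). Cldn7, a claudin of the basolateral membrane as well as the junction, was measured at 22.2, 24.4 and 18.0 CPM in WT, 42.8, 40.6 and 24.2 CPM in ΔPod, and 45.6, 53.0 and 30.03 CPM in K2A. All K2A libraries lay above WT, and ΔPod 3 lay within the WT range. Its edgeR log2 fold change was 0.99 in K2A (SE 0.33, adjusted p = 0.289) and 0.74 in ΔPod (SE 0.33, adjusted p = 0.373).

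Cldn8 and Cldn3 had smaller fold changes in K2A than Cldn4 and Cldn7. Cldn8, which recruits claudin-4 to the junction, was measured at 101, 107 and 95.7 CPM in WT, 157, 145 and 88.1 CPM in ΔPod, and 140.2, 139 and 59.7 CPM in K2A. The low values were ΔPod 3 and K2A 3, so the groups overlapped. Cldn3, a general barrier claudin 39279 bases from Cldn4 on chromosome 5, was measured at 12.7, 17.9 and 12.3 CPM in WT, 15.6, 18.9 and 10.2 CPM in ΔPod, and 22.5, 20.6 and 18.9 CPM in K2A. The K2A libraries lay above all others, with WT 2 and ΔPod 2 the nearest. K2A 3 and ΔPod 2 were nearly tied, at 18.924 and 18.895 CPM. For Cldn3 in K2A the edgeR log2 fold change was 0.54 against WT (SE 0.31, adjusted p = 0.619).

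The ratio of Cldn4 to Cldn8 counts within a library, chosen after the values were seen and therefore given with no test, was 0.173 to 0.183 in WT, 0.174 to 0.251 in ΔPod and 0.311 to 0.434 in K2A. The ratio of Cldn7 to Cldn8 was 0.188 to 0.228 in WT, 0.273 to 0.280 in ΔPod and 0.325 to 0.503 in K2A. For both ratios the K2A libraries lay above all others, and K2A 3, the positive-slope library, was the highest of them. K2A 3 also had the lowest Cldn8 of all libraries, 59.7 CPM. Its Cldn4 and Cldn7, 25.9 and 30.03 CPM, were the lowest of the K2A libraries. Cldn8 was 59.7 to 101 CPM in the positive-slope libraries and 107 to 157 CPM in the others. Cldn4 and Cldn7 were higher than WT in both library classes in K2A, by a log2 ratio of 0.56 and 1.33 for Cldn4 and 0.58 and 1.01 for Cldn7 in the positive-slope and the negative-slope libraries. The negative-slope ratios rest on WT 2, whose slope was less steep than those of K2A 1 and K2A 2. The 6 principal cell markers, none called, summed to 724 to 1119 CPM for WT, 354 to 957 CPM for ΔPod and 861 to 984 CPM for K2A. Aqp2 weighs most in this sum (654 CPM in K2A 1), and the markers did not share a direction. In K2A against WT the edgeR log2 fold change was 0.57 for Aqp2 and 0.67 for Avpr2. It was -0.26 for Aqp3, -0.36 for Scnn1b, -0.35 for Scnn1g and -0.68 for Hsd11b2.

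**Figure D2:**
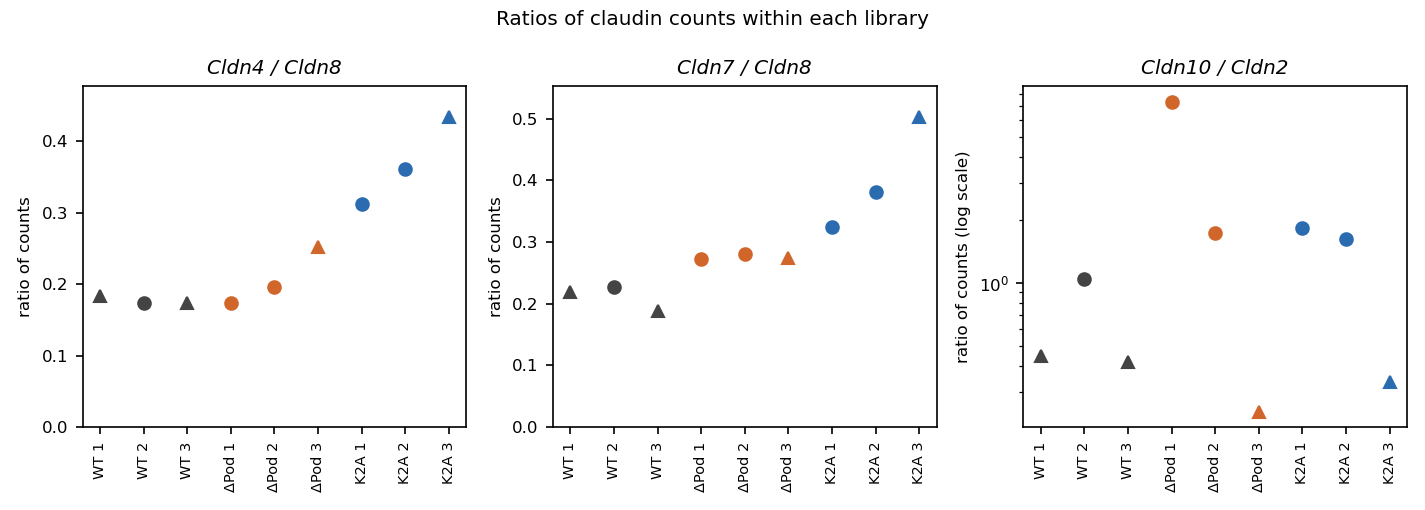
Ratio of counts between pairs of claudins in each library; colour gives the group and the symbol shape the sign of the length slope, and the right panel has a log axis. The Cldn4 to Cldn8 ratio is 0.311 to 0.434 in K2A against 0.173 to 0.183 in WT, whereas the Cldn10 to Cldn2 ratio follows symbol shape.

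Markers of urothelium, the lining of the renal pelvis, which also expresses Cldn4 and Cldn7, stood high in the same libraries. The 8 urothelium markers summed to 6.82 to 12.4 CPM in WT, to 54.4, 16.6 and 0.846 CPM in ΔPod, and to 92.7, 118 and 11.9 CPM in K2A. All 8 had positive fold changes in both mutants and none was called. ΔPod 3 had a urothelium sum below the WT range and 22.1 CPM of Cldn4, above the WT libraries. K2A 3 had a urothelium sum inside the WT range and 25.9 CPM of Cldn4. Within each mutant group, the library with the lowest urothelium sum also had the lowest Cldn4. These libraries, ΔPod 3 and K2A 3, are also the positive-slope libraries of their groups. Among the others, K2A 2 exceeded K2A 1 in both values. ΔPod 2 had a lower urothelium sum than ΔPod 1 but more Cldn4 (28.4 against 27.2 CPM). The part of urothelium in the Cldn4 and Cldn7 values was not tested in any library.

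The 250 bases before the RefSeq starts of Cldn4 and Cldn7 (GRCm38.p6) are shown because these genes lie at the upper end of the K2A comparison; capitals mark the E-box letters CAGGTG or their reverse CACCTG, which Snail-family repressors are known to bind in epithelial promoters. Cldn7 has 2 starts.

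Cldn4 (chr5:134946935-134947184, minus strand): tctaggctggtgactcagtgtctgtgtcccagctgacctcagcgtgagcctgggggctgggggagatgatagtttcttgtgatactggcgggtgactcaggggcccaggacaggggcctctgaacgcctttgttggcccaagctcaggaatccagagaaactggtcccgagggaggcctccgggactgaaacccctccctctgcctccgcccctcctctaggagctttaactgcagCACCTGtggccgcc
Cldn7 (chr11:69964529-69964778, plus strand): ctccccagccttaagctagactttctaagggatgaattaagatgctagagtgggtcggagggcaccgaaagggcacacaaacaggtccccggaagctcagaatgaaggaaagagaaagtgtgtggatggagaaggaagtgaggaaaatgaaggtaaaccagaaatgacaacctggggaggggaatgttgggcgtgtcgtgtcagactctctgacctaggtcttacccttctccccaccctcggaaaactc
Cldn7 (chr11:69965171-69965420, plus strand): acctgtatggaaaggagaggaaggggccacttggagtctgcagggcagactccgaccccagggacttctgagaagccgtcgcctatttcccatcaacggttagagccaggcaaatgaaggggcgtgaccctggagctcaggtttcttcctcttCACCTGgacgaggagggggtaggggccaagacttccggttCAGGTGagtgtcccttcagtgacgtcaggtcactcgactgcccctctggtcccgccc

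One E-box stands near the Cldn4 start, none before the first Cldn7 start and 2 before the other. CAGGTG on either strand stood in 17.2% of all promoters and in 8 of the 32 member promoters (25.0%), those of Cldn4, Cldn6, Cldn7, Cldn14, F11r, Ocln and Tjp3.

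Among claudins not tied to a single tubule segment, K2A stood apart from WT for Cldn15 and Cldn1. Cldn12, an unusual claudin without the usual scaffold-binding tail, was measured at 99.1, 115 and 109 CPM in WT, 167, 144 and 105 CPM in ΔPod, and 134, 138 and 102 CPM in K2A, with overlap between all groups. Cldn5, the claudin of endothelium, was measured at 14.1, 15.9 and 13.3 CPM in WT, 20.3, 17.3 and 13.7 CPM in ΔPod, and 26.3, 25.1 and 11.8 CPM in K2A. K2A thus held both the highest values and the lowest. For Cldn5 and Cldn12 alike, every negative-slope library lay above every positive-slope library. Cldn15, a cation pore best known from the intestine, was measured at 11.9, 11.3 and 10.1 CPM in WT, 10.9, 14.3 and 11 CPM in ΔPod, and 19.9, 19.7 and 13.7 CPM in K2A. K2A lay above WT in all 3 libraries (edgeR log2 fold change 0.68, SE 0.27, adjusted p = 0.389). Cldn1, a sealing claudin found in the parietal cells of Bowman's capsule, was measured at 22.8, 17.7 and 21.2 CPM in WT, 27.2, 24.1 and 21.6 CPM in ΔPod, and 15.6, 16.4 and 12.7 CPM in K2A. Here the K2A libraries were below all others, and ΔPod overlapped WT. The edgeR log2 fold change of Cldn1 in K2A was -0.46 against WT (SE 0.25, adjusted p = 0.585) and -0.71 against ΔPod (SE 0.25, adjusted p = 1).

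Among the 28 members tested in edgeR, the largest fold change against WT was that of Cldn18, a claudin of lung alveoli and stomach, at a very low level. It had 59, 55 and 44 counts in WT, 3, 10 and 7 in ΔPod, and 16, 4 and 1 in K2A. In CPM these were 1.64, 1.57 and 1.09 in WT, 0.109, 0.234 and 0.141 in ΔPod, and 0.496, 0.119 and 0.0242 in K2A. Every WT library lay above every mutant library, by more than 2-fold at the nearest pair. The edgeR log2 fold change was -3.10 for ΔPod (SE 0.82, adjusted p = 0.164) and -2.77 for K2A (SE 0.81, adjusted p = 0.217). It was -2.60 and -2.63 in ΔPod within the positive-slope and negative-slope libraries, and -3.56 and -2.04 in K2A. Without K2A 1 the K2A value was -4.33. Cldn18 passed in DESeq2 in both comparisons (adjusted p = 0.00521 in ΔPod and 0.0145 in K2A). The labels give no sex, and the male-biased genes separate WT from both mutants in the same way; their relation to Cldn18 cannot be told apart from genotype. RefSeq lists 2 starts, known as those of the stomach and lung forms, and counts by symbol merge them. The 250 bases before each (GRCm38.p6) are shown for this reason. Neither holds a CCAAT box, a CAGGTG E-box, a TATAAA box or the grainyhead letters AACCNGTT, so no base is in capitals.

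Cldn18 (chr9:99710064-99710313, minus strand): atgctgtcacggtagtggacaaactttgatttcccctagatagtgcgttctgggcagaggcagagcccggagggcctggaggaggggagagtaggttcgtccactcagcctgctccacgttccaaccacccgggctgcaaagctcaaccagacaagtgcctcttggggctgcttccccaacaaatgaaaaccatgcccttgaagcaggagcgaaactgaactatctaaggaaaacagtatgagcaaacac
Cldn18 (chr9:99717268-99717517, minus strand): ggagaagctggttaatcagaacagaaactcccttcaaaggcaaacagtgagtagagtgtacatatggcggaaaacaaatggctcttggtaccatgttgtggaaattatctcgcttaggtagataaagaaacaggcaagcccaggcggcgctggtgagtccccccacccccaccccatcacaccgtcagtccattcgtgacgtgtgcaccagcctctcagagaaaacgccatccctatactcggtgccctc

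TATAAA stood in 12.4% of all promoters and in 3 of the 32 member promoters, those of Cldn2 and Marveld2. AACCNGTT stood in 1.79% of all promoters and before Cgn and Cldn5. The other scarce claudins, Cldn6, Cldn9 and Cldn23, ran from 0.124 to 1.89 CPM over all libraries and overlapped between the groups.

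The scaffold genes Cgnl1, Tjp1 and Cgn varied more between libraries of a group than between groups. Cgnl1 (paracingulin), which guides regulators of small GTPases to the junction, was measured at 476, 136 and 514 CPM in WT, 27.9, 85.3 and 591 CPM in ΔPod, and 48.2, 43.9 and 525 CPM in K2A. Tjp1 (ZO-1) was measured at 40.3, 12.7 and 49.4 CPM in WT, 28.0, 17.7 and 59.7 CPM in ΔPod, and 10.5, 10.02 and 71.1 CPM in K2A. For both, the 4 positive-slope libraries lay above the other 5, with a gap of more than 3-fold for Cgnl1. Cgn (cingulin) was measured at 22.2, 6.36 and 21.2 CPM in WT, 3.002, 6.05 and 22.7 CPM in ΔPod, and 3.72, 2.16 and 21.0 CPM in K2A. Its 4 positive-slope libraries again lay above the other 5. Within the negative-slope libraries the log2 ratio to WT was -0.48 in ΔPod and -1.09 in K2A for Cgn, and -1.26 and -1.56 for Cgnl1, whereas within the positive-slope libraries it was 0.07 and -0.05 for Cgn, and 0.25 and 0.08 for Cgnl1. Tjp3 (ZO-3), an epithelial scaffold, was measured at 17.1, 13.3 and 15.5 CPM in WT, 7.20, 17.4 and 21.7 CPM in ΔPod, and 18.7, 19.1 and 27.0 CPM in K2A. All K2A libraries were above WT for Tjp3 (edgeR log2 fold change 0.50, SE 0.40, adjusted p = 0.748). The standard errors of the log2 fold changes of Cgnl1, Cgn and Tjp1 in K2A were 1.27, 1.002 and 0.86.

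Ocln and Marveld2 varied least between libraries of all members. Ocln was measured at 34.7, 24.4 and 31.4 CPM in WT, 31.0, 29.7 and 22.2 CPM in ΔPod, and 28.7, 28.0 and 31.7 CPM in K2A. Marveld2 (tricellulin), which seals the points where 3 cells meet, was measured at 17.1, 14.3 and 15.0 CPM in WT, 15.6, 15.7 and 13.6 CPM in ΔPod, and 18.3, 13.8 and 17.7 CPM in K2A. Both overlapped between all groups, and the ratio of the highest to the lowest library was 1.34 for Marveld2, the smallest of any member, and 1.56 for Ocln. Marveld3, which restrains a stress kinase pathway at the junction, was measured at 21.4, 28.0 and 21.5 CPM in WT, 45.5, 40.1 and 22.1 CPM in ΔPod, and 43.6, 41.6 and 21.0 CPM in K2A. Its 5 negative-slope libraries all lay above the other 4.

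Among the JAMs, F11r (JAM-A), which anchors the polarity complex, was measured at 108, 105 and 99.0 CPM in WT, 127, 129.9 and 112 CPM in ΔPod, and 75.5, 88.4 and 111 CPM in K2A. The ΔPod libraries lay above all WT and K2A libraries, and K2A overlapped WT. The edgeR log2 fold change of F11r was 0.24 in ΔPod against WT (SE 0.24, adjusted p = 0.615) and -0.42 in K2A against ΔPod (SE 0.24, adjusted p = 1). Jam3 (JAM-C), which serves leukocyte passage and cell polarity, was measured at 29.6, 32.4 and 30.3 CPM in WT, 64.1, 43.9 and 30.4 CPM in ΔPod, and 42.0, 40.5 and 17.2 CPM in K2A. The groups overlapped, and the lowest library was K2A 3. Every negative-slope library lay above every positive-slope library for Jam3. Jam2 (JAM-B), an adhesion protein of endothelium and stroma, was measured at 7.01, 7.70 and 8.33 CPM in WT, 8.28, 9.05 and 8.30 CPM in ΔPod, and 15.7, 19.1 and 9.07 CPM in K2A. K2A lay above all other libraries (edgeR log2 fold change 0.93 against WT, SE 0.31, adjusted p = 0.289), with K2A 3 higher than ΔPod 2 by little.

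Jam2 and Cldn11 shared their highest libraries with fat cell markers. Cldn11, a claudin of myelin and the testis, was singled out after its values were seen: it had 95 and 173 counts in K2A 1 and K2A 2, or 2.94 and 5.13 CPM, and at most 7 counts, 0.169 CPM, in any other library. It did not pass the count filter in edgeR, and in DESeq2 it was called in K2A against WT (log2 fold change 4.15, adjusted p = 0.00113) and against ΔPod (4.30, adjusted p = 0.0181). The 8 fat cell markers summed to 11.9 to 21.0 CPM in WT, 146, 14.7 and 17.4 CPM in ΔPod, and 229, 657 and 44.6 CPM in K2A. All 7 tested fat markers had positive fold changes in K2A and none was called; Adipoq was at 0 in WT 1, WT 2, ΔPod 3 and K2A 3. ΔPod 1, which also had a high fat sum, had 8.28 CPM of Jam2 and 0.109 CPM of Cldn11, both at the level of the low libraries. The part of fat or other tissue in the Jam2 and Cldn11 values was not tested. The 7 endothelial markers summed to 232 to 398 CPM for WT, 147 to 452 CPM for ΔPod and 235 to 424 CPM for K2A. Their sum was 385 to 452 CPM in the positive-slope libraries and 147 to 247 CPM in the others.

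**Figure D3:**
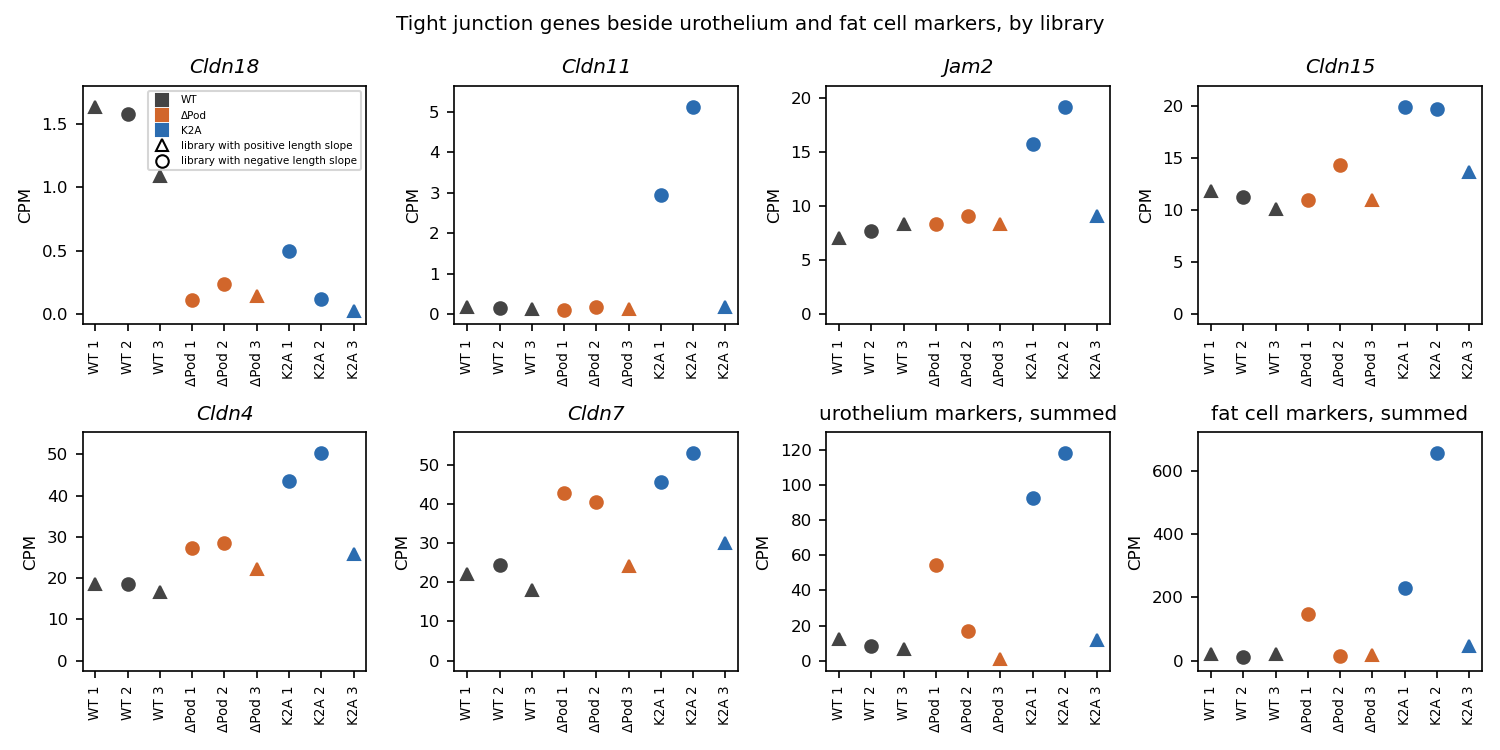
CPM in each of the 9 libraries for 6 tight junction genes and for the summed urothelium and fat cell markers; colour gives the group and the symbol shape the sign of the length slope. Cldn18 is at 1.09 CPM or more in WT alone, and Cldn11 is at 2.94 and 5.13 CPM in K2A 1 and K2A 2, which also have the highest marker sums.

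In the comparison of ΔPod with WT, which addresses loss of Ybx1 from podocytes, 0 of 28 members passed the edgeR test at a false discovery rate of 0.05, beside 178 of all tested genes (0.985%). At an unadjusted p under 0.05 there was 1 member, Cldn18, beside 13.8% of all genes. Groups did not overlap for 5 members (17.9%), Cldn4 and F11r above WT and Cldn2, Cldn18 and Cldn19 below it, beside 18.2% of all genes. The median log2 fold change was 0.14 over the members, 0.24 over the 17 claudins and 0.01 over the 11 others, beside 0.08 over all genes. In none of these counts did the members stand above the background.

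In the comparison of K2A with WT, which addresses the loss of secretion, again 0 of 28 members passed, beside 153 genes (0.847%). At an unadjusted p under 0.05 there were 5 members, with Cldn4, Cldn7, Cldn15 and Jam2 higher and Cldn18 lower, beside 10.6% of all genes. Groups did not overlap for 8 members (28.6%), beside 20.1% of all genes. Of these Cldn3, Cldn4, Cldn7, Cldn15, Jam2 and Tjp3 lay above WT, and Cldn1 and Cldn18 below it. The median log2 fold change was 0.13 over the members, 0.26 over the claudins and -0.03 over the others, beside 0.09 over all genes. Both comparisons share the WT libraries, so their values are not independent.

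Between K2A and ΔPod 0 of 28 members and 0 genes in all (0%) passed the edgeR test. At an unadjusted p under 0.05 there were 2 members, Jam2 higher and Cldn1 lower in K2A, beside 2.01% of all genes. Groups did not overlap for 5 members (17.9%), with Cldn3, Cldn19 and Jam2 higher in K2A and Cldn1 and F11r lower, beside 5.11% of all genes. For Cldn3, Jam2 and F11r the groups were nearly tied, so the 17.9% depends on very small gaps. Their nearest values in K2A 3 and a ΔPod library were 18.924 and 18.895 CPM, 9.075 and 9.049 CPM, and 110.9 and 111.8 CPM. The median was 0.11 over the members and -0.01 over all genes.

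**Figure D4:**
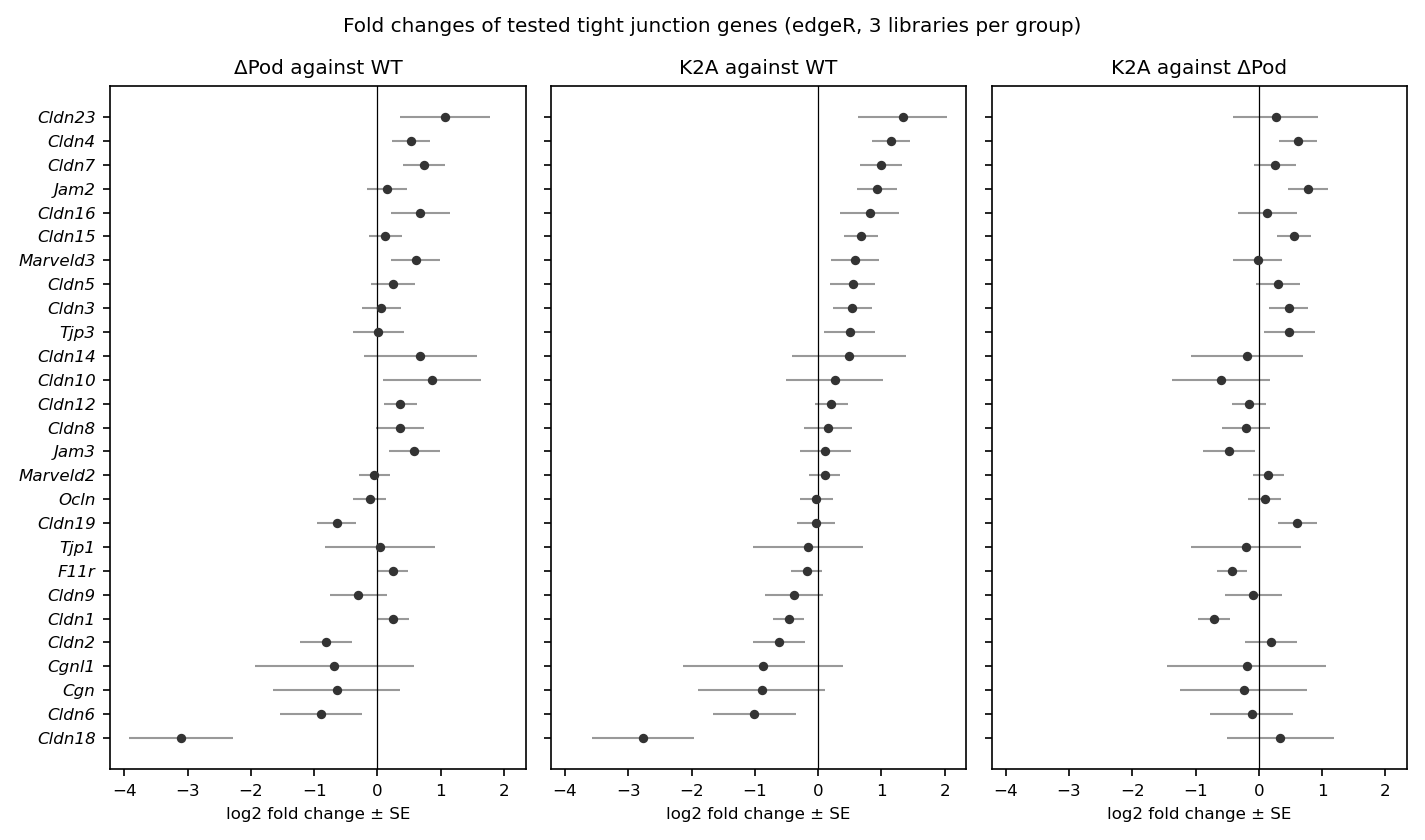
Log2 fold change with its standard error (edgeR, 3 libraries per group) for 27 tested genes in the 3 comparisons, ordered by the value in K2A against WT. None passes a false discovery rate of 0.05; Cldn18 lies lowest at -3.10 in ΔPod and -2.77 in K2A, and the scaffold genes Cgnl1, Cgn and Tjp1 have wide errors.

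Tested claudins were mostly shorter transcripts than the other members, with overlap. The median longest transcript was 1848 bases over the tested claudins and 4052 bases over the other members. Over the 28 members the difference between negative-slope and positive-slope libraries, in mean log2(CPM + 0.1), had a Pearson r of -0.69 and a Spearman rank correlation of -0.65 with log2 length, and over 17599 genes with a length r was -0.55. The classes were formed by the sign of each library's slope on length, so a negative sign is built in, and these values describe genes of the same 9 libraries. Cgnl1 (-3.16), Cgn (-2.44) and Tjp1 (-1.88) had strongly negative differences, and Cldn10 (1.72), Cldn23 (1.35) and Cldn16 (1.08) the most positive. In all, 12 of 17 claudins were higher in the negative-slope libraries, beside 51.2% of all tested genes, and 8 of 11 others in the positive-slope libraries, beside 48.8%. For 13 of 28 members (46.4%) the classes did not overlap, beside 53.1% of all genes, so the members did not stand above the background. Cldn6, with a transcript of 1622 bases, had a difference of -1.26, and Jam2, with 4370 bases, one of 0.45.

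**Figure D5:**
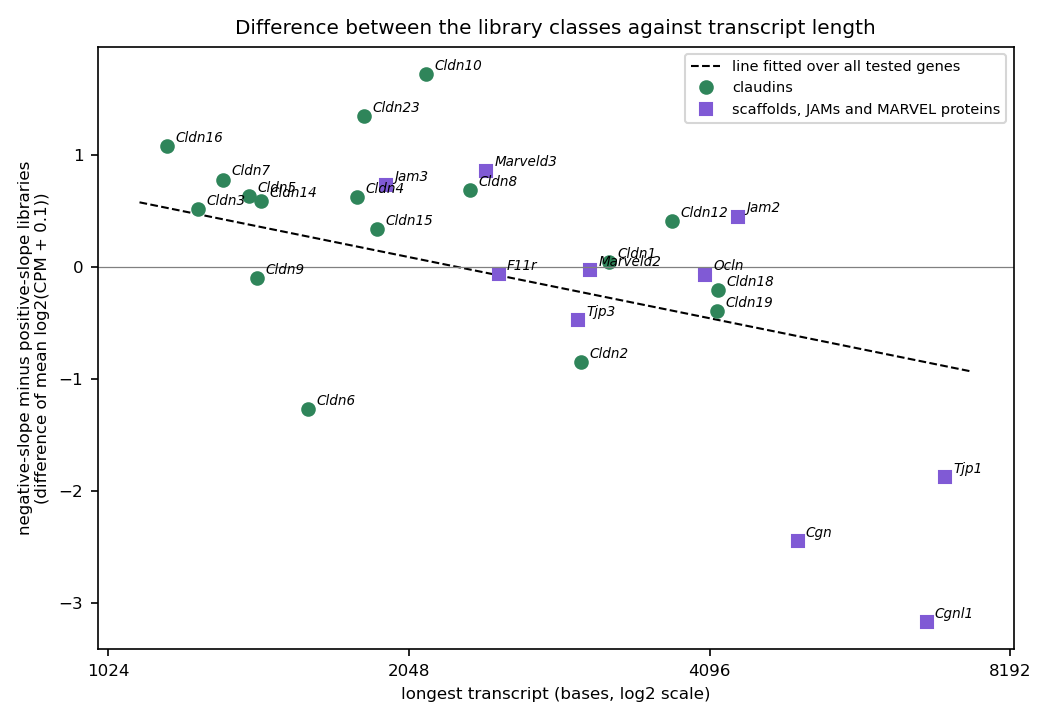
Difference of mean log2(CPM + 0.1) between negative-slope and positive-slope libraries against longest transcript length (log2 axis) for 27 tested genes; the dashed line is fitted over all 17599 genes with a length. Cgnl1, Cgn and Tjp1 lie lowest, from -3.16 to -1.88, and Cldn10 highest at 1.72.

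With the length slope as a covariate in edgeR, 14.3% of all genes were called in ΔPod and 15.9% in K2A. Without it the shares were 0.985% and 0.847%. The slope, and its sign used below, were computed from the counts of these same genes and libraries. The adjusted p-values with either term do not allow for that. In ΔPod the member called was Cldn18 (log2 fold change -3.43, adjusted p = 0.00920). In K2A 7 members were called. Cldn4 (0.95, adjusted p = 0.00538), Cldn7 (0.74, adjusted p = 0.00629), Jam2 (0.77, adjusted p = 0.0469) and Tjp3 (0.74, adjusted p = 0.0497) were higher. Cgnl1 (-0.48, adjusted p = 0.0121), Cldn1 (-0.54, adjusted p = 0.0402) and Cldn18 (-3.20, adjusted p = 0.0112) were lower. The calls of Cldn1, Jam2 and Tjp3 lay close to the limit of 0.05. With only the sign of the slope as a term, 3.96% and 4.09% of all genes were called, and among the members Cldn18 in ΔPod and Cldn18 and Cldn4 in K2A (Cldn4 0.97, adjusted p = 0.0464). In DESeq2 without a length term, 3.66% of genes were called in ΔPod, 3.57% in K2A and 0.0778% between the mutants. The members among them were Cldn18 in ΔPod, Cldn4, Cldn11 and Cldn18 in K2A, and Cldn11 between the mutants. The 7 members in K2A with the slope are 25.0% of those tested, and the other counts are 1 to 3 members. Cgnl1, called lower with the slope, had no shared direction within the classes. Its log2 ratio of K2A to WT was 0.08 in the positive-slope and -1.56 in the negative-slope libraries (no test).

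Genes that work with the junction but are not members were taken from a list of 36 polarity, angulin and signalling genes, of which 35 were counted and tested. None was called in any comparison, and their median log2 fold change was -0.42 for ΔPod, -0.36 for K2A and -0.05 for K2A against ΔPod. Over all genes these medians were 0.08, 0.09 and -0.01. The summed level of the list was 2212 to 2484 CPM in the positive-slope libraries and 1002 to 1387 CPM in the others. The part of transcript length in the list's medians was not tested. Ybx3 was measured at 64.2, 64.1 and 64.7 CPM in WT, 29.1, 41.9 and 57.8 CPM in ΔPod, and 57.4, 60.4 and 62.9 CPM in K2A. All mutant libraries lay below WT. The edgeR log2 fold change of Ybx3 was -0.58 in ΔPod (adjusted p = 0.389) and -0.09 in K2A (adjusted p = 0.917). Lsr, the angulin that places tricellulin at corners between cells, was measured at 59.7, 50.3 and 56.6 CPM in WT, 15.6, 32.4 and 42.3 CPM in ΔPod, and 38.4, 36.1 and 42.5 CPM in K2A. Prkcz, the atypical protein kinase C of the polarity complex, was measured at 103, 88.3 and 100.2 CPM in WT, 38.7, 61.7 and 75.6 CPM in ΔPod, and 66.3, 71.1 and 64.6 CPM in K2A. For both genes every mutant library was below every WT library, with an edgeR log2 fold change in ΔPod of -0.88 (adjusted p = 0.344) for Lsr and -0.73 (adjusted p = 0.339) for Prkcz. Epcam, which stabilises claudin-7, was measured at 112, 100.5 and 84.1 CPM in WT, 128, 153.9 and 77.7 CPM in ΔPod, and 161, 153.8 and 131 CPM in K2A. K2A lay above WT for Epcam, at an edgeR log2 fold change of 0.59 (adjusted p = 0.573). Of the 35 genes, only Lsr, Cxadr, Mpp5, Prkcz and Ybx3 did not overlap WT in ΔPod, beside 18.2% of all genes. In K2A only Lsr, Prkcz, Ybx3 and Epcam did not overlap WT, beside 20.1% of all genes.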

How the data were processed

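The authors deposited raw whole-number counts by gene symbol for 9 whole-kidney libraries, in a pair of tables that each hold WT with one mutant group. Per the labels' protocols, mRNA was enriched on oligo-dT beads before ScriptSeq v2 library preparation. Per the submitters' processing notes the build was mm10, and the tools listed, with no roles, include STAR 2.7.3a, Trim Galore 0.6.3 and featureCounts 2.0.1. Strand setting and multi-mapping rule are not given in the sources used here, so counts of overlapping or near-identical genes are uncertain. Of 52163 symbols shared by the tables, 3 with differing WT counts were left out, none of them a member.

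Counts of all genes were fitted with edgeR 4.0.16 (R 4.3.3; filterByExpr, TMM, 9 libraries, group as the only term, quasi-likelihood test, Benjamini-Hochberg adjustment over 18067 genes, false discovery rate 0.05), and only the members' results are printed. DESeq2 1.42.0, other scalings and filters, a replicate block, terms for the length slope, and leaving out libraries were alternatives; ratios within a library class were added after seeing the data. The steps were tested on simulated counts. Transcript lengths came from GENCODE vM21, matched for 36 of 37 members, and promoters from RefSeq.

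Members with a mean of at least 10 CPM (23 genes) or a call are given in every library, other tested members by range; 1 member enters the counts, medians and correlations but is not reported here; Cldn18 and Cldn11 in every library and the count ratios were chosen after their values were seen. The members and lists were chosen with earlier results of these data known. Same-numbered WT and mutant libraries did not pair: the correlations of their deviations from group means were -0.62, 0.44 and 0.71 in ΔPod and -0.54, 0.76 and 0.71 in K2A. Between the mutants they were 0.76, 0.40 and 0.85, which pairs them by the rule used, though the labels name no shared batch and these numbers coincide with the library classes. Depth was 30776806 to 46852490 counts per library, and limits from 3 counts cover counting error only.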

Additional observations from a re-analysis of the deposited data

How the results depend on the processing

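The count of members called was 0 in every comparison with RLE size factors, no filter, at least 1 CPM in 3 libraries, only the 6 libraries compared, and K2A libraries 1 and 2 left out. With the replicate block, the paired fit, it was also 0 in every comparison. DESeq2 called 1 member in ΔPod, 3 in K2A and 1 between the mutants. The length slope as a covariate called 1 in ΔPod and 7 in K2A, and the sign of the slope as a class term called 1 and 2. Both terms were computed from these same counts. Leaving out each library in turn gave 0 to 1 in K2A and 0 to 1 between the mutants, and 0 in ΔPod; the 1 is Cldn11, called without K2A replicate 3 at an adjusted p of 0.00951 against WT and 0.0397 against ΔPod. Cldn18 ranged from -3.50 to -2.93 in ΔPod over the alternatives. In K2A it was -4.33 without K2A replicate 1 and -5.72 with K2A libraries 1 and 2 left out, resting on few counts in K2A 2 and K2A 3. The cause of these differences was not tested. With 3 libraries a group and a division by length within each group, the standard errors of long scaffold transcripts reach about 1 log2 unit without a length term; with the slope as a covariate that of Cgnl1 in K2A was 0.10. Counts under 60 in a library limit Cldn18, and transcripts with no count are limited only by the 3-count level.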
